A study of Mus musculus with 6 samples.

Results

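The Vegf ligands, their receptor tyrosine kinases and the neuropilins were followed in the ventricles of infarcted mouse hearts. The 9 genes were taken by name from a table of 26012 genes. They comprise 4 ligands (Vegfa, Vegfb, Vegfc and Pgf), 3 receptor tyrosine kinases (Flt1, Kdr and Flt4) and 2 co-receptors (Nrp1 and Nrp2), and all 9 were found and passed the filter on low values. The comparison asked how the transcripts of infarcted hearts differed after delivery of miR-19a/19b. All 6 hearts came from male C57BL/6 mice 8 weeks of age, in which the left anterior descending coronary artery was ligated. Control mimic (n = 3) or miR-19a and miR-19b mimics together (n = 3, the miR-19a/19b mimic group) were injected into the heart at the same surgery with a lipid carrier, at 10 μg per heart, and the ventricles were taken at day 4 after MI. A mimic is a synthetic duplex that acts as the mature miRNA. The libraries were made from polyadenylated RNA, so the amount of mimic in each heart was not measured in them.

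Vegf ligands are secreted factors that drive the growth and survival of blood and lymphatic vessels. Vegfa binds both Flt1 and Kdr, of which Kdr carries most of the signal in blood endothelium, whereas Flt1 binds the ligand tightly, signals weakly and also exists as a soluble decoy. Vegfb and Pgf bind Flt1, and Vegfc binds Flt4 of lymphatic endothelium and, after processing, Kdr. Nrp1 and Nrp2 are co-receptors for Vegf ligands and also bind secreted semaphorins. In the infarcted heart Vegfa is known as a hypoxia-induced gene made by cardiomyocytes among other cells.

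The mature miRNAs are shown because their seed defines which transcripts they can pair with. The seed (bases 2 to 8) is in capitals, and the sequences are those of RefSeq for GRCm38.p6. They share this seed and differ by U11C, with positions counted from the 5′ end of miR-19a-3p.
miR-19a-3p: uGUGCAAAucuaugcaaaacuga
miR-19b-3p: uGUGCAAAuccaugcaaaacuga
A match to the seed (TTTGCACA, TTTGCAC or TTGCACA on the sense strand) was present in the longest annotated 3′ UTR of 1 of the 9 genes, against 19.3% of the 15858 tested genes with such a UTR. That gene was Nrp2, with a 7-mer that began at base 68 of a 3′ UTR of 3325 bases. Other annotated 3′ UTRs of Nrp2 were not searched and may lack the match, while its counts are per gene. None of the 9 held the 8-mer, which was present in 5.8% of the tested genes. The Nrp2 match lies in exonic 3′ UTR sequence on the plus strand at chr1:62796046-62796074 (GRCm38) and is printed with its neighbouring bases, the match in capitals.
Nrp2 site: gttgcctcgatTTTGCACtttttttctcc

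The 250 bases upstream of Vegfa, Vegfb and Flt1 are shown because the levels of these genes moved together over the hearts (described with the cardiomyocyte markers). Capitals mark the core of the hypoxia response element, ACGTG or GCGTG, on either strand (CACGT or CACGC on the printed strand). The sequences are from RefSeq for GRCm38.p6 and read 5′ to 3′ on the minus strand, at chr17:46032378-46032627 for Vegfa, chr19:6987652-6987901 for Vegfb and chr5:147726012-147726261 for Flt1.
Vegfa: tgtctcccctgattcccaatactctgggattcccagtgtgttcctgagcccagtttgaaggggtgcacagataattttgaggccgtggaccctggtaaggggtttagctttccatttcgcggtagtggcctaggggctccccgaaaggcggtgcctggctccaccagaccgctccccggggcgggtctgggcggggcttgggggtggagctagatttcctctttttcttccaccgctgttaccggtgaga
Vegfb: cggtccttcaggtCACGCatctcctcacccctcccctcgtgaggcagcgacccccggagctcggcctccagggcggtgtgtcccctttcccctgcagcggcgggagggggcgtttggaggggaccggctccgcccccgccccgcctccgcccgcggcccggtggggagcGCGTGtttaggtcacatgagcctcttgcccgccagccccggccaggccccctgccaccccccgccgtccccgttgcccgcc
Flt1: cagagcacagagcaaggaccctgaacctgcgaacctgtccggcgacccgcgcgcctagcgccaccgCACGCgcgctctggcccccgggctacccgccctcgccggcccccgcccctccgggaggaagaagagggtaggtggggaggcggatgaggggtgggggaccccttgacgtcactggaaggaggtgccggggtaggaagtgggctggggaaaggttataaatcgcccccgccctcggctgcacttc
The core was found at 2 positions upstream of Vegfb, at 1 upstream of Flt1, and at 0 in this Vegfa window. The window of a second annotated Vegfa start held 2. That window (chr17:46025164-46025413) lies inside the Vegfa gene itself, so its matches are in transcribed sequence of the longer transcript. In all, 7 of the 11 annotated windows of the 9 genes held the core, compared with 38.6% of 32851 promoter windows of the same length. Kdr and Nrp2 held it at 2 positions each, and Nrp1 and 1 Pgf window at 1, so it was not particular to the genes shown. Flt4 and Vegfc held 0. Bases farther from these starts were not searched, so 0 in a window does not mean that a gene lacks the element. Such a match is a description of the letters only.

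The libraries held between 19398196 and 23645308 reads counted on genes, and mitochondrial genes took between 3.18% and 6.93% of them, the lowest share being that of miR-19a/19b mimic replicate 3. The labelled tissue was checked with 14 cardiomyocyte genes, all detected in every heart at 1479.9 normalized counts or more. One heart stood apart in these genes. All 14 were lowest in miR-19a/19b mimic replicate 3, and 13 of the 14 were higher in miR-19a/19b mimic replicates 1 and 2 than in every control heart. Their summed level ran from 649700 to 848980 normalized counts in control hearts and from 399030 to 1167800 in miR-19a/19b mimic hearts. The sum of 7 skeletal muscle genes was 2587.6 normalized counts in miR-19a/19b mimic replicate 1 and between 29.3 and 70.0 in the other hearts. Values without replicate 3 of the mimic are given beside many of the results. In bulk tissue, fewer cells of a type and less RNA per cell cannot be told apart.

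Values are normalized counts (reads on a gene divided by the size factor of the library), and fold changes were estimated with limma on log2(normalized count + 1), which understates changes of genes with few reads. A gene was called at a Benjamini-Hochberg adjusted p under 0.05. Over 21126 tested genes limma called 0 (0.0%), edgeR's quasi-likelihood test on recovered reads also called 0, and DESeq2 called 29 (28 lower and 1 higher with miR-19a/19b mimic). Without adjustment, 848 genes had a limma p under 0.05, of which 555 (2.63%) were lower and 293 (1.39%) higher. None of the 9 Vegf genes was called by limma, edgeR or DESeq2, and none had an unadjusted p under 0.05 in these 3 tests with all 6 hearts. Their median log2 fold change was -0.01, beside 0.00 for all genes tested, or -0.09 with replicate 3 of the mimic left out. The limma adjusted p was 0.9996 for each of the 9 with all 6 hearts, which is not repeated below. Vegfc and Nrp1, 2 of the 9, had groups without overlap, compared with 9.2% of all genes tested.

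**Figure D1:**
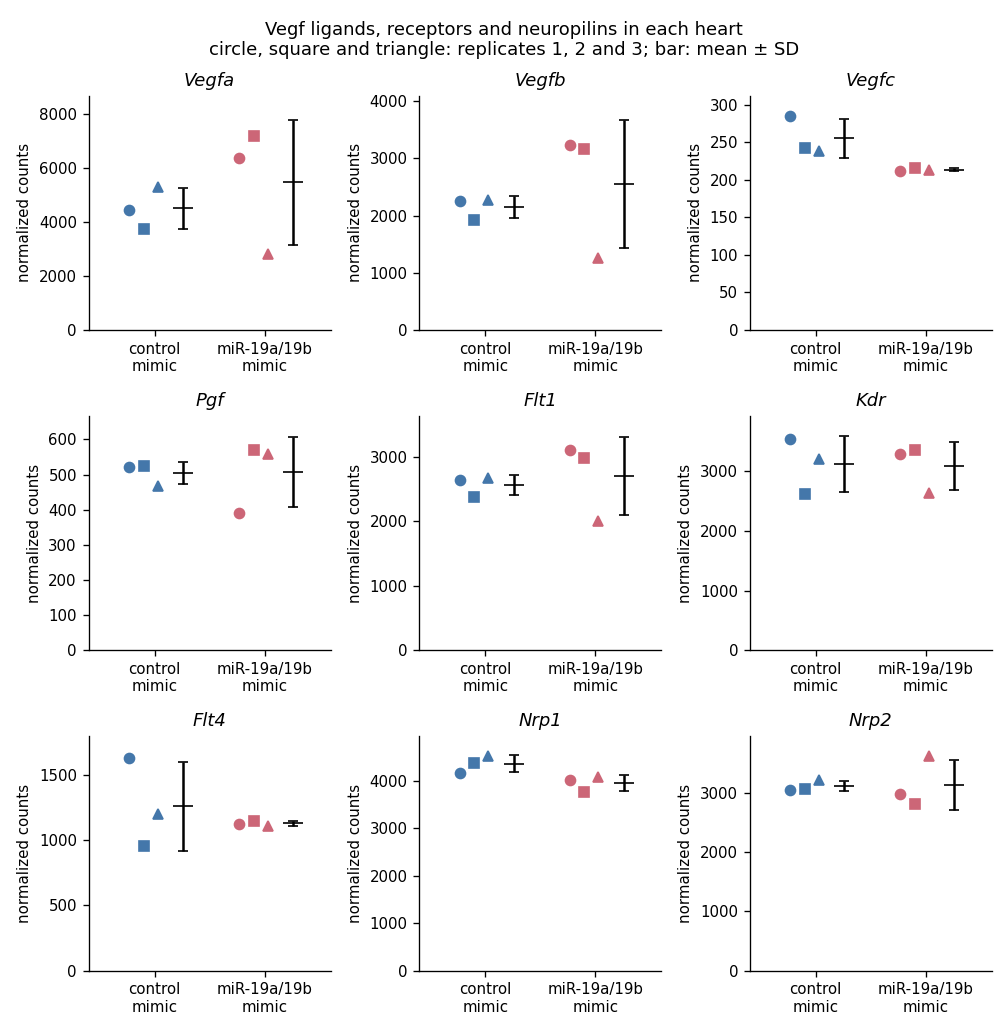
Normalized counts of the 9 genes in each heart (y axes from 0), with control mimic in blue, miR-19a/19b mimic in red, and the mean ± SD (n = 3) as a black bar beside each group. Vegfa, Vegfb and Flt1 were highest in miR-19a/19b mimic replicates 1 and 2 and lowest in replicate 3, whereas the groups did not overlap for Vegfc and Nrp1.

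Among the ligands, Vegfa and Vegfb carried the widest spread. Vegfa (ENSMUSG00000023951, chr17:46016993-46032377, minus strand), the principal angiogenic ligand, was at 4445, 3749 and 5281 normalized counts in control hearts and at 6362, 7182 and 2820 in miR-19a/19b mimic hearts. Replicates 1 and 2 of the mimic lay above every control heart and replicate 3 below every one, so the groups overlapped. The means were 4492 ± 766.9 (SD, n = 3) and 5454 ± 2318 (SD, n = 3), and the log2 fold change was 0.18 (SE 0.315). Its 95% interval covered folds from 0.692 to 1.86. Without miR-19a/19b mimic replicate 3, Vegfa was 1.52-fold higher with mimic (log2 fold change 0.60, limma adjusted p = 0.0419), and without replicate 2 the estimate was -0.07.

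Vegfb, a ligand of Flt1 linked to cardiac muscle and to coronary vessels, had the same hearts high and low. Vegfb (ENSMUSG00000024962, chr19:6982473-6987651, minus strand) was at 2249, 1927 and 2280 normalized counts in control hearts and at 3244, 3158 and 1268 in miR-19a/19b mimic hearts. As with Vegfa, the 2 high hearts and the lowest heart were all in the mimic group. The means were 2152 ± 195.1 (SD, n = 3) and 2557 ± 1117 (SD, n = 3), with a log2 fold change of 0.13 (SE 0.316) and an interval of folds from 0.666 to 1.80. Without miR-19a/19b mimic replicate 3, Vegfb was 1.49-fold higher (log2 fold change 0.58, limma adjusted p = 0.0210). In that setting 2 of the 9 Vegf genes were called as higher, beside 1.81% of 21202 tested genes, and 3 of 9 had an unadjusted p under 0.05 and were higher, beside 8.39%.

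Vegfc, the lymphatic ligand, was the ligand whose groups did not overlap. Vegfc (ENSMUSG00000031520, chr8:54077532-54186454, plus strand) was at 285.2, 242.0 and 238.2 normalized counts in control hearts and at 212.0, 215.5 and 212.7 in miR-19a/19b mimic hearts. The mimic hearts were nearly equal, and each lay below each control heart. The means were 255.1 ± 26.06 (SD, n = 3) and 213.4 ± 1.863 (SD, n = 3), and the log2 fold change of -0.25 (SE 0.124) did not pass the test, with an interval of folds from 0.691 to 1.02. Its change was about the same without replicate 3 (-0.25). Relative to the mean of 26 endothelial genes, Vegfc was lower with mimic by 0.304 on the log2 scale, with groups that did not overlap (exact two-sided permutation p = 0.1, the smallest that 3 against 3 hearts allow).

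Pgf (ENSMUSG00000004791, chr12:85166639-85177296, minus strand), placental growth factor, was at 522.8, 524.1 and 468.0 normalized counts in control hearts and at 391.6, 571.2 and 557.6 in miR-19a/19b mimic hearts. The lowest and the highest heart were both in the mimic group. The log2 fold change was -0.01 (SE 0.155), with an interval of folds from 0.777 to 1.26. Set against Vegfa in the same heart, the log2 ratio of Pgf to Vegfa was -3.086, -2.836 and -3.493 in control hearts and -4.018, -3.65 and -2.336 in miR-19a/19b mimic hearts. The ratio was lowest in the mimic hearts with most Vegfa and highest in replicate 3, and the groups overlapped (difference -0.196, exact two-sided permutation p = 0.7). Without replicate 3 the difference was -0.696. Vegfd, the remaining ligand of Flt4, which the table lists as Figf, had a log2 fold change of -0.13 (limma adjusted p = 0.9996), or -0.21 with that heart left out, and groups that overlapped.

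Of the receptors, Flt1 had the same hearts high and low as Vegfa and Vegfb, with a smaller spread. Flt1 (ENSMUSG00000029648, chr5:147561604-147726011, minus strand) was at 2644, 2376 and 2664 normalized counts in control hearts and at 3112, 2976 and 2011 in miR-19a/19b mimic hearts. Again replicates 1 and 2 were above and replicate 3 below all controls. The means were 2562 ± 160.7 (SD, n = 3) and 2700 ± 600.4 (SD, n = 3), and the log2 fold change was 0.05 (SE 0.166). Without replicate 3 it was 0.25 with a limma adjusted p of 0.224, which did not pass.

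Kdr, the main signalling receptor of blood endothelium, differed between the groups by less than the spread among hearts. Kdr (ENSMUSG00000062960, chr5:75932827-75978458, minus strand) was at 3538, 2618 and 3209 normalized counts in control hearts and at 3282, 3351 and 2630 in miR-19a/19b mimic hearts. The range of the mimic hearts lay inside that of the controls. The means were 3122 ± 465.9 and 3088 ± 397.4 (SD, n = 3 each), with a log2 fold change of -0.01 (SE 0.146) and an interval of folds from 0.788 to 1.25. Without replicate 3 of the mimic the estimate was 0.10. The mean log2 level of the 26 endothelial genes, relative to the control mean, lay between -0.079 and 0.146 in control hearts and between 0.004 and 0.134 in miR-19a/19b mimic hearts. The ratio of Kdr to these genes differed by -0.065 on the log2 scale (exact two-sided permutation p = 0.6), and by 0.022 without that heart. The ratio of Flt1 to Kdr differed by 0.064 (exact two-sided permutation p = 0.6), and by 0.152 without it. Over the 21 ratios tested, the smallest adjusted p was 1.0 (exact permutation).

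Flt4 (ENSMUSG00000020357, chr11:49609263-49652739, plus strand), the receptor of lymphatic endothelium, was at 1629, 955.4 and 1198 normalized counts in control hearts and at 1125, 1149 and 1112 in miR-19a/19b mimic hearts. The control hearts were spread to both sides of the mimic hearts, which lay close together. The means were 1261 ± 341.2 and 1129 ± 18.62 (SD, n = 3 each), with a log2 fold change of -0.13 (SE 0.173). Without control mimic replicate 1, the highest heart, the estimate was 0.08. Of 8 lymphatic endothelial genes, 0 had an unadjusted p under 0.05, with Fgl2 at the smallest (log2 fold change -0.26, and -0.09 with replicate 3 of the mimic left out). The list had a median of -0.12, and of -0.02 without that heart.

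The neuropilins are co-receptors found on endothelium and on other cells of the heart. Nrp1 (ENSMUSG00000025810, chr8:128359073-128505462, plus strand) was at 4167, 4384 and 4524 normalized counts in control hearts and at 4022, 3771 and 4083 in miR-19a/19b mimic hearts. Every mimic heart lay below every control heart, by a narrow margin. The means were 4358 ± 180.2 and 3959 ± 165 (SD, n = 3 each), and the log2 fold change of -0.14 (SE 0.101) did not pass the test, with an interval of folds from 0.775 to 1.06. The annotation places Mir1903 on the same strand within Nrp1 exons, over 80 bases, and reads there cannot be told apart.

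Nrp2 (ENSMUSG00000025969, chr1:62703285-62818695, plus strand), the only one of the 9 with a seed match in its longest 3′ UTR, was at 3057, 3075 and 3221 normalized counts in control hearts and at 2979, 2811 and 3622 in miR-19a/19b mimic hearts. Replicates 1 and 2 of the mimic were below all controls and replicate 3 above them. The means were 3118 ± 90.01 and 3138 ± 427.8 (SD, n = 3 each), with a log2 fold change of 0.00 (SE 0.119) and an interval of folds from 0.830 to 1.21. Without replicate 3 the estimate was -0.11. The log2 ratio of Nrp2 to Nrp1 was -0.447, -0.511 and -0.49 in control hearts and -0.433, -0.424 and -0.173 in miR-19a/19b mimic hearts. All mimic hearts had the higher ratio, although replicate 1 by little (difference 0.14, exact two-sided permutation p = 0.1, the smallest possible). Replicate 3 carried most of this difference, which was 0.054 without it.

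**Figure D2:**
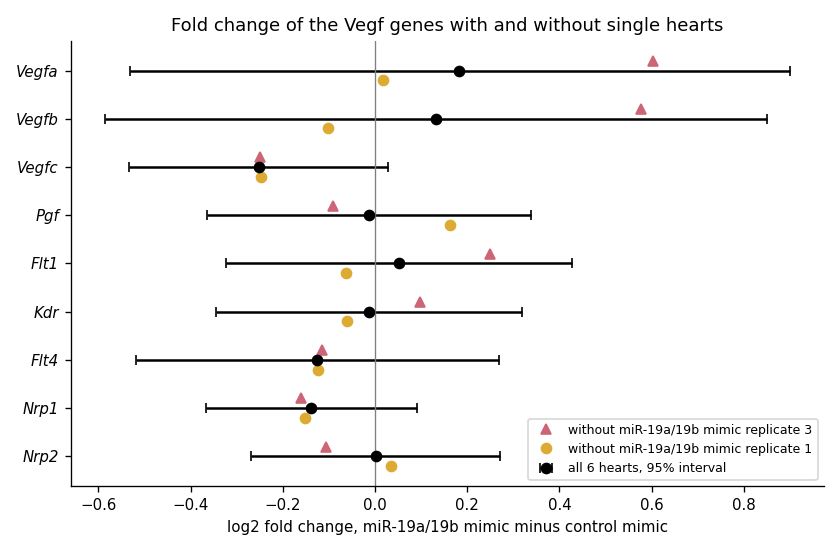
Log2 fold change of each gene, mimic minus control, in limma with all 6 hearts (black, 95% interval) and without miR-19a/19b mimic replicate 3 (red triangles) or replicate 1 (yellow circles). All 9 intervals with 6 hearts include 0, and leaving out replicate 3 moved Vegfa to 0.60 and Vegfb to 0.58.

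Levels were compared between genes per length, as normalized counts per kilobase of the gene length in the table. That length is given per gene, from 1582 bases for Pgf to 13504 for Flt1. Isoforms were not told apart, so the order depends on this length. In control hearts Vegfb was the most abundant at 1341 ± 121.6 (SD, n = 3) per kilobase and Vegfa next at 1046 ± 178.6, and their ranges overlapped. Nrp1 (737.8 ± 30.51) lay below both and above Kdr (345.7 ± 51.6), without overlap on either side. Kdr overlapped with Pgf (319.2 ± 20.21), which lay above Nrp2 (263.3 ± 7.601), and Nrp2 lay above Flt1 (189.7 ± 11.9). Flt1 overlapped with Flt4 (153.2 ± 41.45), and Flt4 with Vegfc (135.6 ± 13.86), the least abundant of the 9. The order of the means was the same in miR-19a/19b mimic hearts, where Vegfa overlapped with Nrp1 and Pgf with Nrp2, and where Flt1 and Flt4, and Flt4 and Vegfc, did not overlap.

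**Figure D3:**
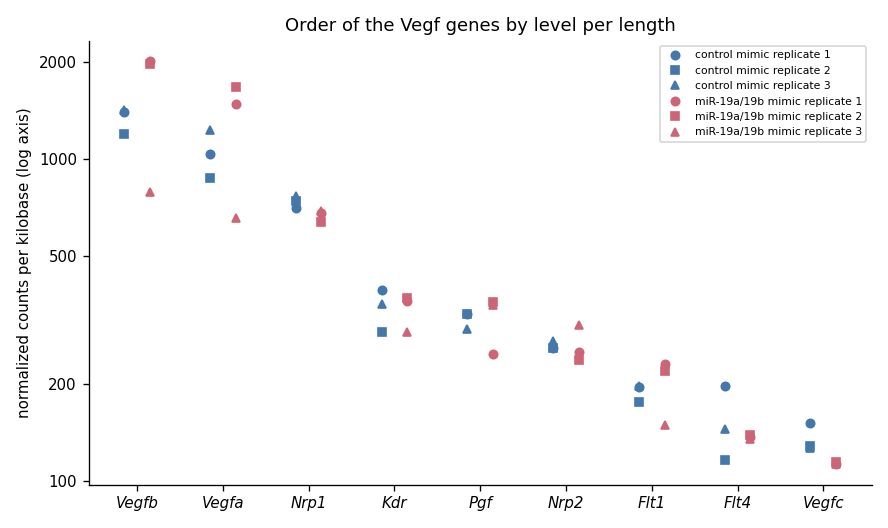
Normalized counts per kilobase of gene length in each heart (log axis), with the genes ordered by the control mean and symbols for replicates 1, 2 and 3. Vegfb and Vegfa stood at the top with means of 1341 and 1046 per kilobase in control hearts, and Vegfc at the bottom with 135.6.

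Vegfa, Vegfb and Flt1 moved with the cardiomyocyte genes over the 6 hearts. The mean log2 level of the 14 cardiomyocyte genes, relative to the control mean, was 0.04, -0.245 and 0.204 in control hearts and 0.663, 0.584 and -0.91 in miR-19a/19b mimic hearts. Relative to the same baseline, Vegfb was at 0.068, -0.155 and 0.087 in control hearts and at 0.596, 0.557 and -0.758 in mimic hearts, which is the same order of hearts. In 54 relations of the 9 genes with 6 cell type lists, computed over hearts of both groups, Vegfb correlated with the cardiomyocyte list at r = 0.994 (exact permutation p = 0.00139, adjusted 0.0375) and rho = 1.0 (exact permutation p = 0.00278, adjusted 0.0375). Without miR-19a/19b mimic replicates 1 and 3, the hearts farthest from the median of the list, r was 0.973.

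Flt1 gave r = 0.996 (exact permutation p = 0.00139, adjusted 0.0375) and rho = 1.0 (exact permutation p = 0.00278, adjusted 0.0375), with r = 0.985 without those hearts. Vegfa gave r = 0.98 (exact permutation p = 0.00278, adjusted 0.05) and rho = 0.943 (exact permutation p = 0.0167, adjusted 0.129), with r = 0.996 without them, so neither was under 0.05 after adjustment. These measures were chosen after the values were seen, and each group alone has too few hearts for a correlation. The macrophage list ran in the opposite order, with rho = -1.0 for both Vegfb and Flt1 (exact permutation p = 0.00278, adjusted 0.0375) and r = -0.884 and -0.907 (exact permutation p = 0.0181 and 0.00833, adjusted 0.122 and 0.09), and r = -0.951 and -0.996 without the 2 farthest hearts. Divided by the cardiomyocyte genes, Vegfa differed between groups by 0.071 on the log2 scale (exact two-sided permutation p = 0.6) and Vegfb by 0.019 (exact two-sided permutation p = 0.9), with -0.02 and -0.047 without replicate 3 of the mimic. Such ratios use the same hearts and list as the correlations, so they restate them and are not a separate test. Flt1 divided in the same way was at -3.671, -3.54 and -3.824 in control hearts and at -4.059, -4.045 and -3.116 in miR-19a/19b mimic hearts. Replicates 1 and 2 lay below and replicate 3 above all controls, the reverse of the order before division. Its difference was -0.061 (exact two-sided permutation p = 1.0), and -0.373 without replicate 3. The part of the cardiomyocyte content of the samples in these levels was not tested.

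Vegfb and Flt1 were the only Vegf genes to pass the adjustment with the cardiomyocyte list. Nrp2 ran nearly the opposite way, with r = -0.871 (exact permutation p = 0.0306, adjusted 0.15) and rho = -0.771 (exact permutation p = 0.103, adjusted 0.397), and r = -0.612 without the 2 farthest hearts. Kdr gave r = 0.767 (exact permutation p = 0.0722, adjusted 0.3) and rho = 0.543 (exact permutation p = 0.297, adjusted 0.596), and r = 0.646 without them. The values for Pgf (r = -0.511) and Flt4 (r = 0.147) were smaller in size. Nrp1 gave r = -0.306 with the cardiomyocyte list and Vegfc r = -0.065 (exact permutation p = 0.56 and 0.863, adjusted 0.68 and 0.863), with rho = -0.429 and -0.371 (exact permutation p = 0.419 and 0.497, adjusted 0.596 for both). Kdr gave its highest r with the lymphatic endothelial list, at 0.924 (exact permutation p = 0.00556, adjusted 0.0751) and rho = 0.886 (exact permutation p = 0.0333, adjusted 0.225). Its highest rho was with the endothelial list, at 0.943 (exact permutation p = 0.0167, adjusted 0.129), where r was 0.677 (exact permutation p = 0.124, adjusted 0.319). None of these passed the adjustment. The lymphatic endothelial list also gave r = 0.914 with Flt1, 0.89 with Vegfb and 0.854 with Vegfa. Without the 2 hearts farthest from the median of that list, these were 0.132, 0.137 and -0.196, and that of Kdr was 0.891. The 8 genes of the list did not move as 1 set. In miR-19a/19b mimic replicate 3, 5 of them were lowest and 1, Pdpn, was highest. Whether the list follows lymphatic endothelium in these samples was not tested. Among 11608 genes with a mean of at least 100 normalized counts, the 5 whose log2 level was most like Vegfa over the 6 hearts, as a description, were Fxr1 (r = 0.998), Eci1 (0.998), Myl2 (0.997), Ppargc1b (0.997) and Cox8b (0.997). Myl2, the ventricular myosin light chain, was itself on the cardiomyocyte list, and 634 genes had r above 0.95 with Vegfa. For Kdr the 5 were Arhgap10 (0.999), Ttc1 (0.996), Slc30a1 (0.995), Wbp2 (0.99) and Ppm1f (0.988), with 37 genes above 0.95.

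**Figure D4:**
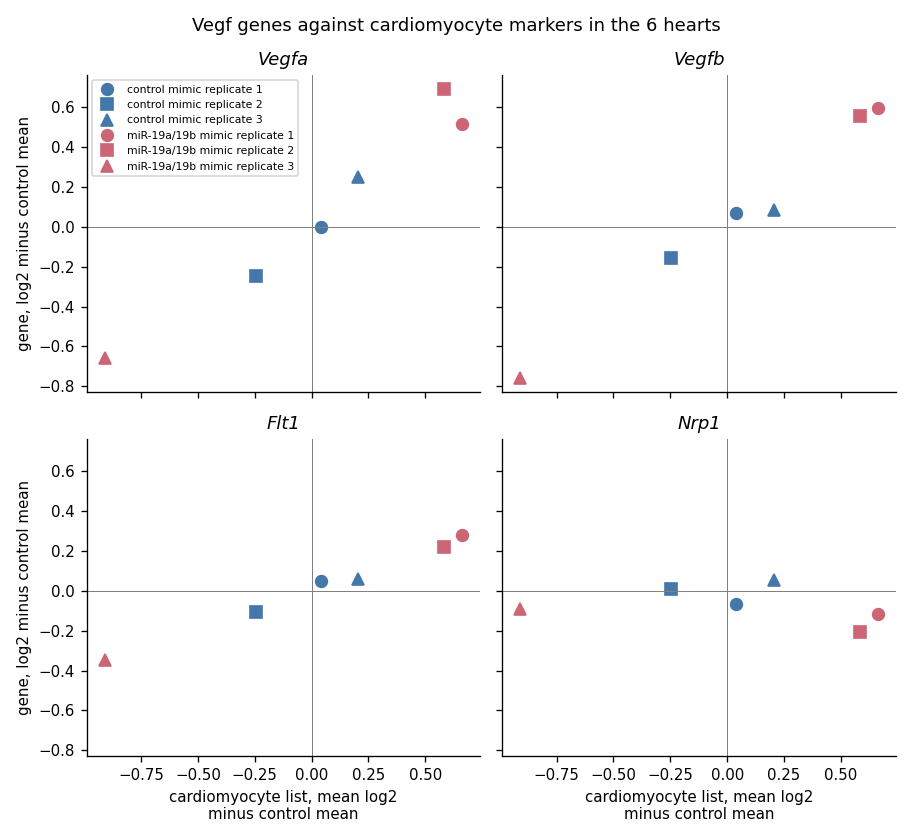
Log2 level of Vegfa, Vegfb, Flt1 and Nrp1 (y axes) against the mean log2 level of 14 cardiomyocyte genes (x axes), both relative to the control mean, with 1 point per heart. Vegfa, Vegfb and Flt1 were higher along the x axis, from replicate 3 of the mimic at -0.91 to replicate 1 at 0.663, and Nrp1 was not (r = -0.306).

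The genes around the pathway were read from lists of known members, and none of their genes was called by limma (adjusted p = 0.9996 for each gene named from them unless another value is given). Their counts at an unadjusted p under 0.05 stand beside 2.63% of all genes tested for lower and 1.39% for higher. Of 32 genes of signalling below the receptors, 2 were lower at an unadjusted limma p under 0.05 and 0 higher, with a median log2 fold change of -0.02. These were Sh2d2a, an adaptor of Kdr, at -1.18 and Map2k1, a kinase of the Erk cascade, at -0.27. Sh2d2a rested on few reads, at 48.6, 58.6 and 30.8 normalized counts in control hearts and at 12.9 to 27.8 in miR-19a/19b mimic hearts, without overlap. It is also known as an adaptor of T cells. Of 16 genes that Vegf induces, 1 was lower, Fst (-0.43), which encodes follistatin. In fits that left out a heart, the unadjusted limma p stayed under 0.05 in 6 of 6 for Sh2d2a, 4 for Map2k1 and 2 for Fst.

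Of 22 inhibitors and modulators of Vegf, 2 were lower and 0 higher. Ctgf, a matricellular protein that binds Vegfa, was at 9893, 13759 and 13403 normalized counts in control hearts and at 9841, 7751 and 7720 in miR-19a/19b mimic hearts (log2 fold change -0.54). Mimic replicate 1 was only just below the lowest control. Thbs1, an anti-angiogenic matrix protein, had a log2 fold change of -0.46, with groups that overlapped. Its unadjusted limma p stayed under 0.05 in 2 of 6 fits that left out a heart, and that of Ctgf in 5. Of 13 semaphorins and plexins, which share the neuropilins with Vegf, 0 had an unadjusted p under 0.05, with Sema3g at the smallest (0.21).

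On the list of tip and sprouting endothelium, more genes had estimates below 0 than above. Of 14, 13 had a negative log2 fold change, several of them close to 0 (Nid2 -0.012, Plvap -0.014 and Pdgfb -0.023). The median was -0.16 beside 0.00 for all genes, where about as many estimates lay below 0 as above. Of the 14, 3 were lower at an unadjusted limma p under 0.05 beside 2.63% of all genes. With replicate 3 of the mimic left out, these 14 had a median of -0.27. The 3 also stand on the list of angiopoietin, apelin and Notch genes, of which 3 of 22 tested were lower and 1 higher (Hey1, a Notch target named outside the rule after its value was seen, at 0.31). Apln, the apelin ligand of sprouting vessels, was at 700.7, 611.9 and 639.0 normalized counts in control hearts and at 399.2, 494.9 and 530.8 in miR-19a/19b mimic hearts. All mimic hearts lay below all controls, and the log2 fold change of -0.46 (limma adjusted p = 0.9677) kept an unadjusted p under 0.05 with each of the 6 hearts left out.

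Angpt2, the Tek ligand that loosens vessels, was at 378.0, 372.8 and 373.7 normalized counts in control hearts and at 207.7, 277.3 and 344.9 in miR-19a/19b mimic hearts. The control hearts were nearly equal and the mimic hearts were spread below them. Its log2 fold change was -0.47, and the unadjusted p stayed under 0.05 in 1 of 6 fits that left out a heart. Adm, adrenomedullin, was at 214.4, 249.8 and 237.3 normalized counts in control hearts and at 185.1, 191.8 and 174.6 in miR-19a/19b mimic hearts, again without overlap (log2 fold change -0.34).

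**Figure D5:**
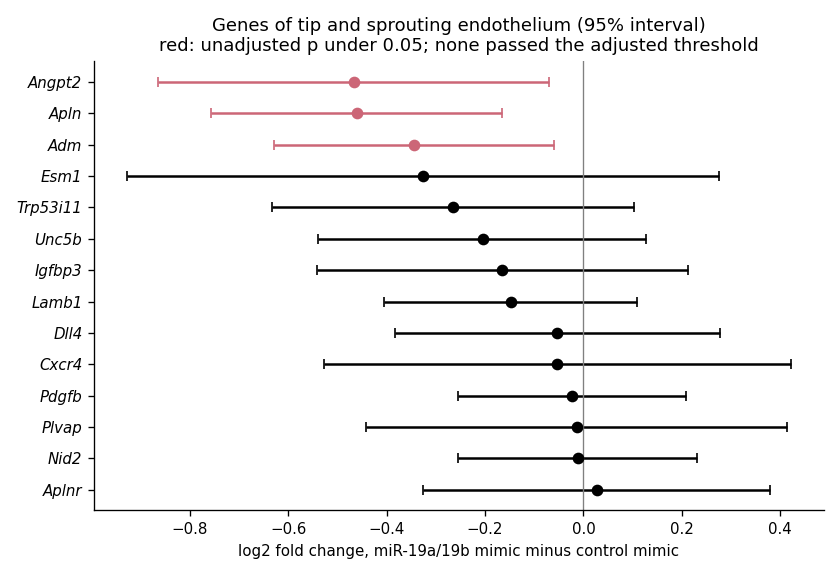
Log2 fold change (mimic minus control, limma, 95% interval) of 14 genes of tip and sprouting endothelium, with an unadjusted p under 0.05 in red. Apln, Angpt2 and Adm stood below 0 with intervals that exclude it, and no gene passed the adjusted threshold.

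The list of 26 hypoxia response genes mixes regulators of the response, such as Hif1a, Arnt and Vhl, with genes induced when oxygen is low. Its median is therefore not a measure of induced genes alone. Of the 26, 2 were lower at an unadjusted p under 0.05 and the median was -0.07. Car9, a carbonic anhydrase, had a log2 fold change of -0.43 and Slc2a1, the glucose transporter, of -0.24. Each kept an unadjusted limma p under 0.05 in 2 of 6 fits that left out a heart. With replicate 3 of the mimic left out, the list's median was 0.02. Among 26 endothelial genes, 0 were lower and 1 higher, with a median of 0.02. The higher gene was Sox17, a transcription factor of arterial endothelium, at 1018, 1044 and 1015 normalized counts in control hearts and at 1307, 1342 and 1475 in miR-19a/19b mimic hearts. The groups did not overlap, and the log2 fold change of 0.42 (limma adjusted p = 0.7905) had an unadjusted p under 0.05 with each of the 6 hearts left out.

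Of the remaining cell type lists, 1 of 12 pericyte and smooth muscle genes was lower (Cnn1, calponin, at -0.62), as was 1 of 12 fibroblast genes (Col8a1, at -0.46). The medians of these lists were -0.11 and -0.045 (or -0.20 and -0.16 with replicate 3 of the mimic left out). Among macrophage genes 1 of 12 was lower, Ccr2, the monocyte chemokine receptor, at -0.53 (limma adjusted p = 0.8856), and the median was -0.12 (or -0.27 without that heart). The cardiomyocyte list had 0 of 14 at an unadjusted p under 0.05 and a median of 0.14, which was 0.69 without miR-19a/19b mimic replicate 3.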

How the data were processed

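Polyadenylated RNA of 6 infarcted ventricles was sequenced, and per the labels each library is a separate replicate of its group. Per the submitters' processing notes and the methods, the authors filtered the reads, aligned them with STAR (2.5.1b) and counted reads per gene with HTSeq (0.6.0). The deposited signal is a normalized count, for which the authors scaled the reads on a gene by 1 size factor per library, and 100.0% of the values came out as whole reads (tolerance 0.01). The notes list DESeq2 (1.10.1) and mm9, the methods name edgeR, and the coordinates in the table are those of GRCm38. The authors' columns of log2 fold changes and p-values were not used, nor was their list of changed genes.

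Groups were compared with limma (3.58.1, R 4.3.3), the variance prior following expression, after adding 1 to the normalized counts and taking log2, for 21126 genes whose mean was 1 or more. On recovered reads, DESeq2 (1.42.0) called 29 genes and edgeR (4.0.16) 0. Ratios and correlations were tested with exact permutation over hearts. Alternatives were DESeq2, edgeR with TMM or RLE, no filter, at least 10 normalized counts in every heart, the replicate number as a block, 0.1 as the pseudocount, the median of the endothelial list, and each heart left out. Correlations with cell type lists and ratios of the genes to those lists were added after seeing the data, apart from Kdr to endothelial genes. The tests were also run on simulated reads with known changes. These had the same dispersion for every gene and no heart that stood apart, unlike the hearts here. The 9 genes and the 15 gene lists were chosen with earlier results of these data known. Named genes are the 9, Vegfd, for each list up to 3 genes with an unadjusted p under 0.05 (or, with none, the gene of smallest p), and the 5 genes most like Vegfa or Kdr. Seed matches were searched in the longest 3′ UTR of the GRCm38 annotation.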

Additional observations from a re-analysis of the deposited data

How the results depend on the processing

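No Vegf gene was called under DESeq2, edgeR, either filter, a pseudocount of 0.1 or the replicate block. With no filter 1 of the 9, Vegfc, had an unadjusted p under 0.05, as did 1161 of 26012 genes. DESeq2 called 29 genes and limma 0. Leaving out 1 heart gave between 0 and 547 called genes, 610 to 3067 genes at an unadjusted p under 0.05, 0 to 2 Vegf genes called, and 0 to 3 of them at an unadjusted p under 0.05; the upper end of each range came without miR-19a/19b mimic replicate 3. With 2 hearts in a group the limma fit takes its spread from the remaining hearts.

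Leaving out 1 heart, log2 fold changes ranged from -0.071 to 0.60 for Vegfa, -0.10 to 0.58 for Vegfb, -0.30 to -0.17 for Vegfc, -0.11 to 0.16 for Pgf, -0.064 to 0.25 for Flt1, -0.13 to 0.10 for Kdr, -0.31 to 0.077 for Flt4, -0.17 to -0.10 for Nrp1 and -0.11 to 0.076 for Nrp2. Pgf changed sign under DESeq2 (0.007) and edgeR with TMM (0.006) or RLE (0.007). The difference between groups in the log2 ratio of Flt1 to Kdr ranged from -0.008 to 0.152, that of Pgf to Vegfa from -0.696 to 0.145, that of Nrp2 to Nrp1 from 0.054 to 0.185, and that of Kdr to endothelial genes from -0.147 to 0.022. The causes were not tested.

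Hearts with the same replicate number did not deviate together (correlations of -0.008, -0.021 and -0.115). Those with different numbers gave between -0.103 and 0.116. With 3 hearts a group, such correlations cannot show whether the numbers pair the hearts. With the replicate block limma called 0 genes, 641 had an unadjusted p under 0.05 and no Vegf gene did. The block changed no limma call.

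With 3 hearts a group, the intervals of Vegfa and Vegfb include folds of 0.692 and of 1.80, so changes up to that size are not excluded. Intervals cover the spread between hearts only.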
